A study of Homo sapiens with 9 samples.

Results

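The 10 genes at the core of the epithelial to mesenchymal transition were followed in the prostate carcinoma line 22Rv1, of human epithelial origin, in which the tumour suppressor PDCD4 had been exchanged. The genes were chosen by name, with earlier results of these data known, as transcription factors that drive the transition and mesenchymal proteins that mark it. All 10 were found among the 60623 genes of the deposited tables. Every group carried a short hairpin RNA against PDCD4, and one form of the protein was put back. The forms were S239D, in which aspartate stands in for a phosphorylated serine, S239A, in which alanine removes the site, and the wild type (WT). Each form had 3 libraries of poly-A-selected RNA, with 5696841 to 9688554 counts per library. The question of the study is the role of PDCD4 phosphorylation by PLK1, a mitotic kinase, in enzalutamide resistance. No drug treatment is named in the labels. Nor do they give how many cell lines were made for each form, or separate cultures for the 3 replicates, so each p-value reflects the spread among libraries alone, which may be technical. The replicate 2 libraries of S239D and S239A stood apart by their mitochondrial share of counts, at 6.01% and 5.38%, beside 4.72% and 4.9% in the other S239D, 3.33% and 2.99% in the other S239A and 2.83% to 3.04% in the WT libraries.

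In the transition, epithelial cells loosen their junctions and take on the shape and movement of mesenchymal cells. The zinc-finger factors SNAI1, SNAI2, ZEB1 and ZEB2 bind a short DNA element, the E-box, and repress epithelial genes such as the cadherin gene CDH1, while the helix-loop-helix factors TWIST1 and TWIST2 bind related elements. VIM encodes the intermediate filament vimentin, FN1 the matrix glycoprotein fibronectin, CD44 a receptor for hyaluronan and TGM2 a transglutaminase that crosslinks proteins and binds fibronectin at the cell surface. In prostate carcinoma these genes are studied in connection with invasion and with loss of luminal identity. PDCD4 itself binds and restrains the translation helicase EIF4A.

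S239D cells differed from WT cells in both directions among these genes. TGM2, SNAI1, FN1 and CD44 fell to 8.82 ± 0.619, 0.618 ± 0.243, 49.5 ± 4.39 and 34.8 ± 1.75 CPM (counts scaled to library size), against 33.2 ± 1.91, 2.05 ± 0.531, 82.9 ± 1.11 and 57.8 ± 2.57 CPM in WT cells (SD, n = 3 each). SNAI2 and VIM rose to 30.7 ± 3.01 and 89.9 ± 0.993 CPM, against 13.5 ± 1.85 and 70.9 ± 3.83 CPM in WT cells. S239A cells showed no member past the test against WT, although FN1 and CD44 stood above WT in all 3 libraries. ZEB2 and TWIST2 had 0 counts in all 9 libraries. In bulk RNA fewer cells of a type and less RNA per cell cannot be told apart. A change was called where the edgeR p, adjusted over all tested genes, was under 0.05.

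Promoter sequences of FN1, CD44 and VIM are given because these effectors moved with opposite signs in S239D cells, and those of CRB3 and CLDN7 because the transition factors act on such elements. CRB3, a polarity gene, and CLDN7, a claudin gene, were chosen after their values were seen. The 250 bases before the start site were taken from RefSeq on GRCh38.p14, in which 6 of the 10 members had an entry. The CD44 window lies inside the gene span of the deposited annotation, which starts at 35138870. In the FN1, CD44 and VIM sequences capitals mark matches, on either strand, to a cyclic AMP response element (TGACGTCA) or a GC box (GGGCGG). The E-box CAGGTG, the AP-1 element TGAGTCA and the TATA box TATAAA were also searched on both strands and are not in these 3 windows. Neighbouring GC boxes can overlap. In the CRB3 and CLDN7 sequences capitals mark the E-box CAGGTG on either strand.
FN1, chr2:215436069-215436318, minus strand: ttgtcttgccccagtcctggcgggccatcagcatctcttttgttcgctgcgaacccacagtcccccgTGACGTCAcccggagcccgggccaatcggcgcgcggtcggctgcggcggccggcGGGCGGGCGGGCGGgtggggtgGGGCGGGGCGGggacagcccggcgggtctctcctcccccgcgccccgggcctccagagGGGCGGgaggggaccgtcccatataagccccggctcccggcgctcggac
CD44, chr11:35138921-35139170, plus strand: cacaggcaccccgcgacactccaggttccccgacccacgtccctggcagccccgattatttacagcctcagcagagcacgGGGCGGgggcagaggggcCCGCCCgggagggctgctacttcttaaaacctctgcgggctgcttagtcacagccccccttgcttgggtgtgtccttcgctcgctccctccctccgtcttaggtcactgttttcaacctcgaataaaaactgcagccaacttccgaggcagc
VIM, chr10:17227991-17228240, plus strand: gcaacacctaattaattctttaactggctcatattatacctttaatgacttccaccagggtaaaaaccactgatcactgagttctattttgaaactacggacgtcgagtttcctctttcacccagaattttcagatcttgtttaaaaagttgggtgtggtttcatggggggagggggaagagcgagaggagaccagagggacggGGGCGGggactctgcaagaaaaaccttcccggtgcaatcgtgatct
CRB3, chr19:6464021-6464270, plus strand: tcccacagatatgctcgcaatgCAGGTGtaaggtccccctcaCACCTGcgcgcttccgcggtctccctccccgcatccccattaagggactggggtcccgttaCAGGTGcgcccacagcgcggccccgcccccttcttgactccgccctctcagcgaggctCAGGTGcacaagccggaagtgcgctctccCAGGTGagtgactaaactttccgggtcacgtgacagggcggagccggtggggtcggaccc
CLDN7, chr17:7262479-7262728, minus strand: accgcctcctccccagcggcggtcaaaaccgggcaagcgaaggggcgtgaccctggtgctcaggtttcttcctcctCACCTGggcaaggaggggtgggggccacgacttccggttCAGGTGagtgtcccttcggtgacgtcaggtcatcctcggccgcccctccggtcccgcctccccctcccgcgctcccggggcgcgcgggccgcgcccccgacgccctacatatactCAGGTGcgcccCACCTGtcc
The FN1 window held 1 cyclic AMP response element, which 1.65% of 35116 promoter entries of this length hold, and 6 GC boxes, which 42.6% hold at least once. CD44 held 2 GC boxes and VIM held 1. The E-box was present in 17.5% of all entries, the AP-1 element in 4.2% and the TATA box in 10.7%. CRB3 held 5 E-boxes and the second CLDN7 entry held 4. That CLDN7 window also holds the cyclic AMP response element TGACGTCA, and both windows hold GC box matches. These stand in lower case, since only E-boxes were marked there. These matches describe letters only, and no binding was measured.

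SNAI1, the zinc-finger repressor on chromosome 20 (49982980 to 49988886), was a low-abundance transcript. It had 7, 3 and 6 counts in the S239D libraries, 23, 16 and 20 in the S239A libraries and 18, 15 and 14 in the WT libraries. All 3 S239D libraries lay below every other library, and S239D replicate 2 stood at the floor of 3 counts. SNAI1 was 3.19-fold lower in S239D than in WT cells (log2 fold change -1.68, SE 0.428, edgeR adjusted p = 0.00621). It was 3.61-fold lower in S239D than in S239A cells (log2 fold change -1.85, SE 0.417, edgeR adjusted p = 0.00256). The log2 difference from WT was smaller, at -0.85, on log2(TPM + 1), where a pseudocount understates changes of low genes, and the call held there (limma adjusted p = 0.0262). S239A and WT libraries overlapped (log2 fold change 0.18, 95% interval -0.58 to 0.94, edgeR adjusted p = 0.918).

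SNAI2, the close relative of SNAI1 on chromosome 8 (48917598 to 48921740), took the opposite direction. Its S239D libraries stood at 27.3, 33.0 and 31.7 CPM, its S239A libraries at 13.8, 12.6 and 12.9 CPM and its WT libraries at 15.4, 13.5 and 11.6 CPM. Every S239D library was above every S239A and WT library, which overlapped each other. SNAI2 was 2.27-fold higher in S239D than in WT cells (log2 fold change 1.18, SE 0.135, edgeR adjusted p = 1.26e-05) and 2.34-fold higher than in S239A cells (edgeR adjusted p = 6.99e-06). S239A libraries were close to WT (log2 fold change -0.04, 95% interval -0.35 to 0.26, edgeR adjusted p = 0.952). The 12 other tested genes within 5 Mb had a median log2 fold change of 0.40 in S239D against WT, and chromosome 8 as a whole 0.11, and the part of this stretch in the SNAI2 value was not tested.

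ZEB1, the zinc-finger homeobox factor on chromosome 10 (31318495 to 31529814), was near the limit of detection. It had 9, 3 and 3 counts in the S239D libraries, 12, 13 and 12 in the S239A libraries and 8, 4 and 9 in the WT libraries. The S239A libraries lay above all others, and 2 S239D libraries were at the floor of 3 counts. The log2 fold change of S239D against S239A was -1.27 (95% interval -2.33 to -0.21, edgeR adjusted p = 0.0509), which did not pass the threshold. It passed without S239D replicate 1 (-2.02, edgeR adjusted p = 0.0123). Neither S239D (-0.57, edgeR adjusted p = 0.417) nor S239A (0.69, edgeR adjusted p = 0.666) passed against WT, and the S239A difference turned to -0.16 with limma on unfiltered log2(TPM + 1). ZEB1 entered the test through its S239A libraries, so its place among the tested members leans on that group. ZEB1-AS1, an antisense gene that overlaps ZEB1, had 13 times as many counts. It stood at 10.0 ± 2.23 CPM in S239D, 14.3 ± 0.162 in S239A and 13 ± 1.95 in WT cells (SD, n = 3). Its difference in S239D against S239A was called (-0.51, edgeR adjusted p = 0.0282) and lost with DESeq2 (adjusted p = 0.0546), with limma and without S239D replicate 1 or S239A replicate 1 or 3. The spans of the 2 genes share only the stretch from 31318495 to 31320447. Whether counting used strand is not known from the labels, so reads from such a shared stretch may have been counted for either gene.

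TWIST1, on chromosome 7 (19020991 to 19117636), was the more abundant of the helix-loop-helix pair, since TWIST2 (chromosome 2, 238848032 to 238910534) had no count. TWIST1 stood at 16.4, 10.5 and 17.9 CPM in S239D, 28.7, 18.9 and 27.6 CPM in S239A and 18.0, 19.6 and 17.0 CPM in WT cells. The replicate 2 library was the lowest of its group in both variants, and those 2 libraries also had the highest mitochondrial share of the 9. In TPM the S239D libraries lay close together, at 18.4, 17.9 and 18.2. TWIST1 was lower in S239D than in S239A cells (log2 fold change -0.74, SE 0.191, edgeR adjusted p = 0.00608). That call was lost with limma on log2(TPM + 1) (-0.38, adjusted p = 0.11), within a range of adjusted p of 1.34e-05 to 0.165 among all settings. S239A against WT gave 0.47 (95% interval 0.06 to 0.88, edgeR adjusted p = 0.449), and it passed without both replicate 2 libraries of the variants (0.64, edgeR adjusted p = 0.00215). S239D and WT libraries overlapped (-0.27, 95% interval -0.70 to 0.15, edgeR adjusted p = 0.288). The 31 other tested genes within 5 Mb of TWIST1 had a median of -0.32 in S239D against WT, whose part in the result was not tested. ZEB2 (chromosome 2, 144364364 to 144521057) was at 0 as well, and a count of 0 allows up to 0.31 to 0.527 CPM per library, for counting error only.

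**Figure D1:**
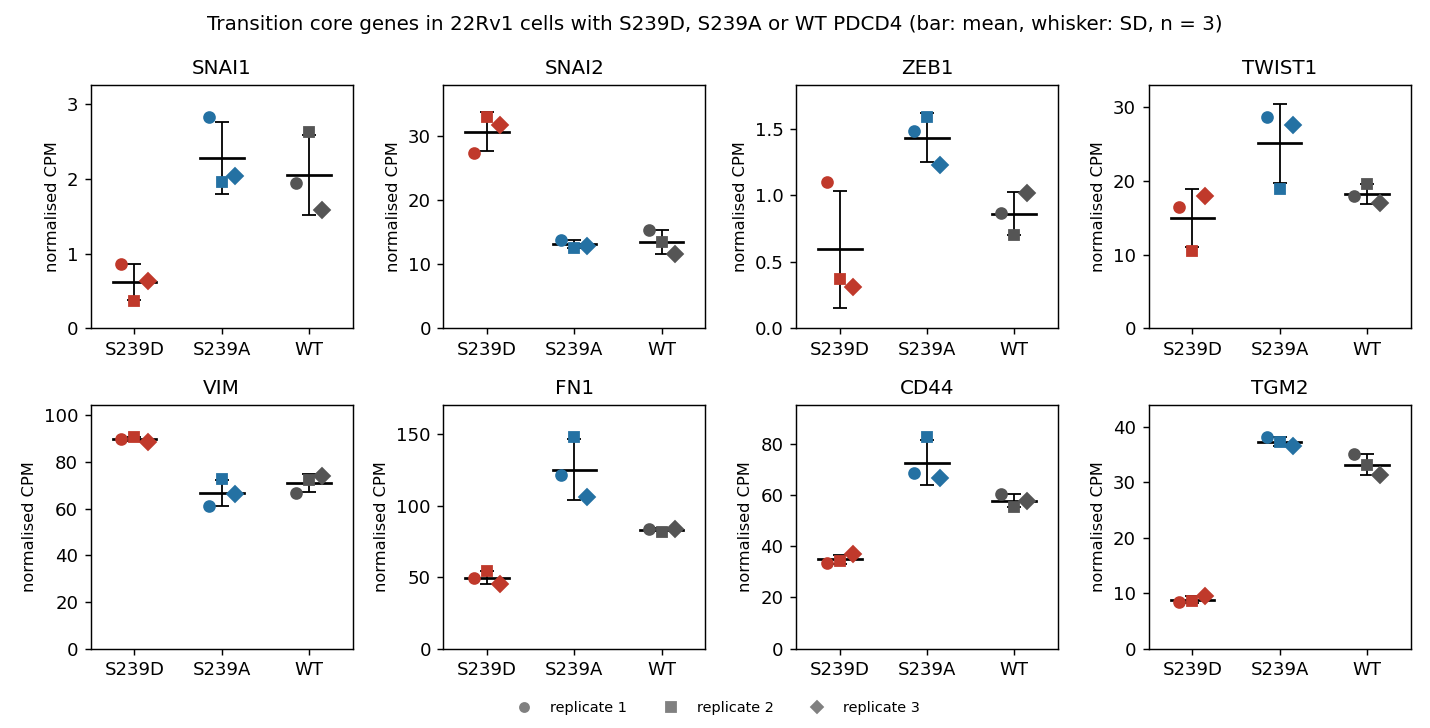
Normalised CPM (vertical axis, from 0) of the 8 detected core genes in S239D, S239A and WT libraries, 1 panel per gene, with replicates as points, the mean as a bar and the SD as a whisker (n = 3). S239D libraries lie below all others for SNAI1, FN1, CD44 and TGM2 and above all others for SNAI2 and VIM.

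TGM2 had the largest drop among the tested members in S239D cells. This transglutaminase gene lies on chromosome 20 (38127385 to 38166578). It stood at 8.43, 8.49 and 9.53 CPM in S239D, 38.2, 37.3 and 36.5 CPM in S239A and 35.1, 33.1 and 31.3 CPM in WT cells. All S239D libraries were far below the rest, and the S239A libraries lay just above those of WT. TGM2 was 3.75-fold lower in S239D than in WT cells (log2 fold change -1.91, SE 0.117, edgeR adjusted p = 6.56e-08) and 4.22-fold lower than in S239A cells (edgeR adjusted p = 1.84e-08). S239A against WT gave 0.17 (95% interval -0.05 to 0.39, edgeR adjusted p = 0.618). RPRD1B, a gene of the opposite strand whose end overlaps TGM2, stood at 56.1 ± 4.45 CPM in S239D, 48.3 ± 3.35 in S239A and 49.6 ± 2.07 in WT cells (SD, n = 3).

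FN1, the fibronectin gene on chromosome 2 (215360440 to 215436073), separated all 3 groups in CPM. Its libraries stood at 49.3, 54.0 and 45.3 CPM in S239D, 121, 148 and 106 CPM in S239A and 83.6, 81.7 and 83.6 CPM in WT cells. No library of one group overlapped another group in CPM, while in TPM S239D replicate 1 (15.35) stood above WT replicate 2 (14.88). FN1 was 2.53-fold lower in S239D than in S239A cells (log2 fold change -1.34, SE 0.117, edgeR adjusted p = 9.53e-07). Against WT it was 1.68-fold lower in S239D cells (-0.75, SE 0.118, edgeR adjusted p = 0.000205), a call that limma on log2(TPM + 1) did not make (-0.54, adjusted p = 0.068), in a span of 4.36e-10 to 0.119 over all settings. S239A against WT gave 0.59 (95% interval 0.35 to 0.84), with an unadjusted p of 0.000127 and an edgeR adjusted p of 0.186. That difference did pass with DESeq2 (0.59, adjusted p = 0.00188), without a filter on low counts (edgeR adjusted p = 4.49e-05) and without both replicate 2 libraries of the variants (0.45, edgeR adjusted p = 0.000687), in a range of 4.49e-05 to 0.713.

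CD44, the hyaluronan receptor gene on chromosome 11 (35138870 to 35232402), followed the same order of groups. It stood at 33.4, 34.3 and 36.8 CPM in S239D, 68.7, 82.8 and 66.6 CPM in S239A and 60.3, 55.2 and 57.9 CPM in WT cells. The 3 groups did not overlap. CD44 was 2.08-fold lower in S239D than in S239A cells (log2 fold change -1.06, SE 0.105, edgeR adjusted p = 2.89e-06) and 1.66-fold lower than in WT cells (-0.73, SE 0.106, edgeR adjusted p = 9.94e-05). S239A against WT gave 0.33 (95% interval 0.11 to 0.55, edgeR adjusted p = 0.306) and passed under no alternative. In CPM, S239A replicate 2, with its high mitochondrial share, held the highest value of both FN1 and CD44, while in TPM its CD44 value was the lowest of its group. The counts are per gene, so splice forms of FN1 and CD44 were not analysed here.

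VIM, the vimentin gene on chromosome 10 (17228241 to 17237593), was the one effector among the 4 that was higher in S239D cells. It stood at 90.0, 90.8 and 88.8 CPM in S239D, 61.3, 72.6 and 66.3 CPM in S239A and 66.6, 72.2 and 74.0 CPM in WT cells. The S239D libraries lay above all others and close together. VIM was 1.27-fold higher in S239D than in WT cells (log2 fold change 0.34, SE 0.0899, edgeR adjusted p = 0.00727) and 1.35-fold higher than in S239A cells (edgeR adjusted p = 0.00154). S239A and WT overlapped (-0.09, 95% interval -0.28 to 0.11, edgeR adjusted p = 0.805). VIM-AS1, an antisense gene overlapping VIM with 24.1% as many counts, differed by 0.33 in S239D against WT (edgeR adjusted p = 0.0911). It was higher in S239D than in S239A cells (0.43, edgeR adjusted p = 0.0295), a call lost with DESeq2 (0.44, adjusted p = 0.0541) and without S239D or S239A replicate 1 or 3. Reads from the stretch that the pair shares (17228241 to 17229985) may have been counted for either gene.

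**Figure D2:**
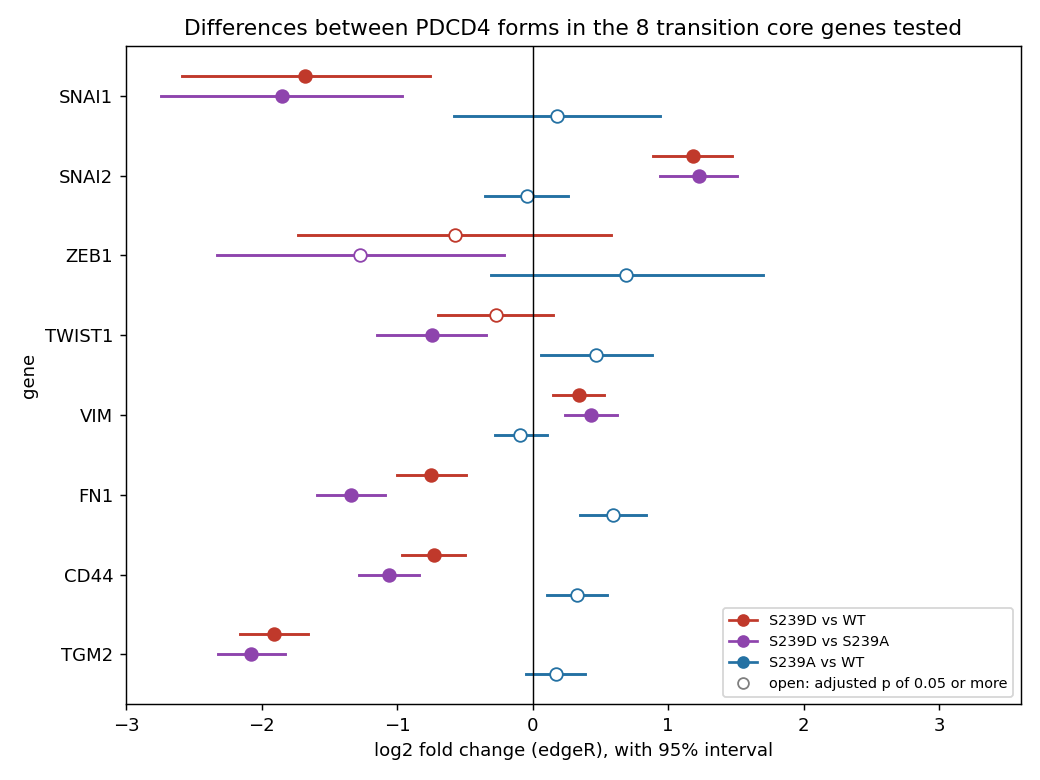
Log2 fold change (horizontal axis) with its 95% interval for each of the 8 tested core genes (vertical axis) in 3 comparisons, filled where the edgeR adjusted p was under 0.05. The S239D points of TGM2 lie at -1.91 against WT and -2.08 against S239A, those of SNAI2 at 1.18 and 1.23, and every S239A against WT point is open.

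Of the 10 members, 8 passed the filter on low counts. In S239D against WT, 2 rose and 4 fell, beside 41.4% of all 16213 tested genes called, 19.7% higher and 21.7% lower. In S239D against S239A, 2 rose and 5 fell, beside 43.6% of all genes, 20.9% higher and 22.7% lower. In S239A against WT none of the 8 was called by edgeR, beside 0.00617% of all genes, while 1583 genes, with FN1, CD44 and TWIST1 among them, had an unadjusted p under 0.05, and DESeq2 called 1 member, FN1. The libraries of the groups did not overlap for 6 of the 8 in S239D against WT, 8 in S239D against S239A and 4 in S239A against WT. Over all tested genes that share was 53.9%, 49.8% and 19.5% in the same comparisons. SNAI1 and ZEB1 passed the filter through the groups in which they were high, so these counts are descriptions of the tested members. The median log2 fold change of the 8 was -0.65, -1.16 and 0.25, against 0.00, 0.01 and 0.00 over all tested genes. The comparisons share libraries, so they are not independent of each other. With S239D and S239A replicate 2 both left out, 2 members were called in S239A against WT, FN1 and TWIST1, and 874 genes in all, against 1 with every library.

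Per transcript length, in TPM, which scales for both length and library size, vimentin and CD44 messages led. In S239D cells the order was VIM (78.9 ± 3.13 TPM), CD44 (29.3 ± 6.36), SNAI2 (25.7 ± 1.44), TWIST1 (18.2 ± 0.266), FN1 (12.2 ± 3.29), TGM2 (4.21 ± 0.642), SNAI1 (0.6 ± 0.225) and ZEB1 (0.243 ± 0.146, SD, n = 3). In S239A cells it was CD44 (64.2 ± 4.98 TPM), VIM (56.8 ± 4.70), FN1 (29.6 ± 2.88), TWIST1 (24.4 ± 5.23), TGM2 (13.6 ± 1.27), SNAI2 (10.7 ± 2.45), SNAI1 (2.1 ± 0.477) and ZEB1 (0.633 ± 0.11). In WT cells it was VIM (59.4 ± 2.10 TPM), CD44 (45.6 ± 4.85), TWIST1 (18.5 ± 2.49), FN1 (17.9 ± 3.12), TGM2 (12.4 ± 1.24), SNAI2 (10.9 ± 4.14), SNAI1 (1.9 ± 0.492) and ZEB1 (0.85 ± 0.342). SNAI2 thus stood above TGM2 and FN1 in S239D cells and below both means in the other groups. Libraries of some neighbours in these orders overlapped, namely CD44 with SNAI2 and SNAI1 with ZEB1 in S239D, CD44 with VIM and FN1 with TWIST1 in S239A, TWIST1 with FN1 in WT, and TGM2 with SNAI2 in S239A and WT. The ratio of TPM to CPM varied between libraries by 3.79-fold for ZEB1, 1.8-fold for TWIST1, 1.71-fold for FN1, 1.64-fold for TGM2, 1.57-fold for CD44 and 1.5-fold for SNAI2, and by 1.11-fold for SNAI1 and 1.1-fold for VIM. Sizes of difference therefore depend on the scale, and TGM2 in S239D against WT gave -1.36 on log2(TPM + 1) with limma, where the call held.

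**Figure D3:**
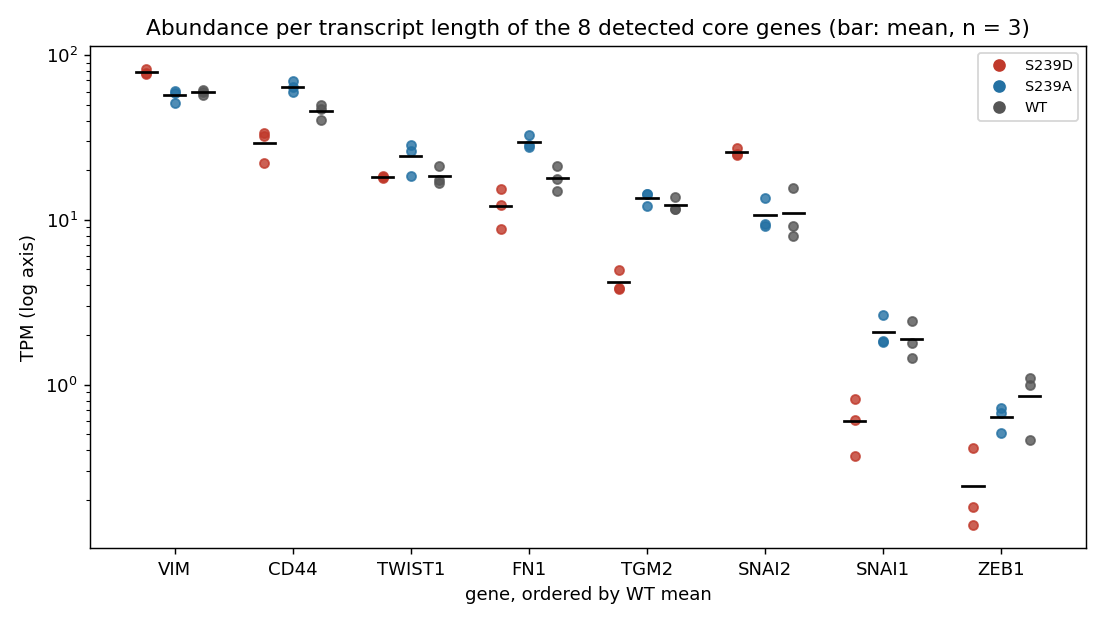
TPM (vertical log axis) of the 8 detected core genes (horizontal axis, ordered by WT mean), with each library as a point and the group mean as a bar (S239D, S239A and WT from left to right, n = 3). SNAI2 averages 25.7 TPM in S239D and 10.9 TPM in WT, and TGM2 averages 4.21 TPM in S239D and 12.4 TPM in WT.

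The counterparts of the core genes in epithelial cells included more genes that fell than rose in S239D cells. Of 40 epithelial genes, all tested, 19 fell and 2 rose against WT, and 20 fell and 3 rose against S239A (median -0.26 in both). This was 52.5% and 57.5% of the list called, beside 41.4% and 43.6% of all tested genes. The list was chosen with earlier results of these data known, so these shares are descriptions. The adhesion gene CDH1, which the SNAI and ZEB factors repress in many carcinomas, averaged 255 ± 14.0 CPM in S239D and 400 ± 3.70 CPM in WT (log2 fold change -0.65, SE 0.0926, edgeR adjusted p = 8.84e-05). The tight junction genes CLDN4 and TJP3 fell by 1.88 and 1.20 on the log2 scale, the luminal keratin gene KRT8 fell by 1.25 and EHF, an epithelial ETS factor, fell by 1.48. EPCAM, an adhesion gene, averaged 51.7 ± 7.03 CPM in S239D and 76.3 ± 6.19 CPM in WT (-0.56, edgeR adjusted p = 0.000945), a call lost with limma on log2(TPM + 1) (-0.36, adjusted p = 0.0857). DSP, the desmoplakin gene, was higher in S239D (0.69, edgeR adjusted p = 0.000994), named after its value was seen. Of the epithelial transcription factors, GRHL1 was called higher (0.61) and ELF3 lower (-0.27), while GRHL3 (-0.46) was not called. These were named after their values were seen. Among the regulators ESRP1, ESRP2, GRHL2, OVOL1 and OVOL2, 4 did not pass the test. ESRP1, a splicing factor of epithelial cells, had 0.13 (95% interval -0.10 to 0.36), ESRP2 -0.22, GRHL2 0.16 and OVOL2 -0.31 on the log2 scale in S239D against WT, with edgeR adjusted p from 0.0899 to 0.354. OVOL1, a repressor of ZEB1, had -0.47 (edgeR adjusted p = 0.0243), lost with DESeq2 (-0.46, adjusted p = 0.0587), without S239D replicate 2 (-0.34, edgeR adjusted p = 0.08) and without WT replicate 2 or 3. ESRP2 against S239A gave -0.24 (edgeR adjusted p = 0.0603) and passed with the replicate number as a block (-0.23, edgeR adjusted p = 0.0465), without S239D replicate 1 (-0.30, edgeR adjusted p = 0.0391) and without S239A replicate 2 (-0.30, edgeR adjusted p = 0.0205). With replicate 2 of both variants left out, ESRP2 passed against S239A (-0.26, edgeR adjusted p = 0.00871) and GRHL2 passed against WT (0.15, edgeR adjusted p = 0.0331).

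Of the epithelial genes, 22 had a promoter entry, CDH1 not among them, and 14 of these held the E-box in at least 1 entry. In terms of entries this was 46.9%, against 17.5% over all genes and 16.7% over the core members. Among the 14 genes with the E-box, 5 fell and 1 rose in S239D against WT (median -0.15). Among the 8 without it, 5 fell and 1 rose (median -1.02). Of all tested genes 41.4% were called in this comparison, and a link between the E-box and the change was not tested. CRB3, with 5 matches, had a log2 fold change of -0.02 (edgeR adjusted p = 0.938), and CLDN7, with 4 in one entry, had -0.54 (edgeR adjusted p = 0.00494). TJP3, with 1 match, fell by 1.20 on the log2 scale.

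Other mesenchymal genes moved in both directions. Of 40, 27 passed the filter. Among these 10 fell and 5 rose in S239D against WT (median -0.60), and 10 fell and 4 rose against S239A (median -0.47). The share called was 55.6% and 51.9%, beside 41.4% and 43.6% of all tested genes. CDH2, the N-cadherin gene that replaces CDH1 in the classical cadherin switch, averaged 1.84 ± 0.248 CPM in S239D and 5.73 ± 1.5 CPM in WT (log2 fold change -1.60, SE 0.294, edgeR adjusted p = 0.000671). CDH1 and CDH2 were thus both lower, although the CDH2 call was lost with limma on unfiltered log2(TPM + 1) (-0.76, adjusted p = 0.0748). CCN2, a secreted matricellular protein gene, fell by 2.30 (edgeR adjusted p = 8.93e-07), and MSN, which links CD44 to actin, fell by 1.53 (edgeR adjusted p = 1.03e-06). ITGA5, the fibronectin receptor chain, fell by 0.81 on the log2 scale, averaging 39.8 ± 2.51 CPM in S239D and 69.8 ± 1.10 CPM in WT (edgeR adjusted p = 9.97e-06).

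Of 20 other transcription factors linked to the transition, 15 passed the filter. In S239D 7 fell and 0 rose against WT (median -0.30), and the same counts held against S239A (median -0.34). The share called was 46.7% in both, beside 41.4% and 43.6% of all tested genes. PRRX1, a homeobox factor of mesenchyme, fell by 1.71 on the log2 scale (edgeR adjusted p = 3.72e-05) and SOX9 fell by 0.64 (edgeR adjusted p = 0.000734). PRRX1 was low, at 2.51 ± 0.175 CPM in S239D and 8.29 ± 1.61 CPM in WT, and was not called by limma on unfiltered log2(TPM + 1) (-1.20, adjusted p = 0.057).

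**Figure D4:**
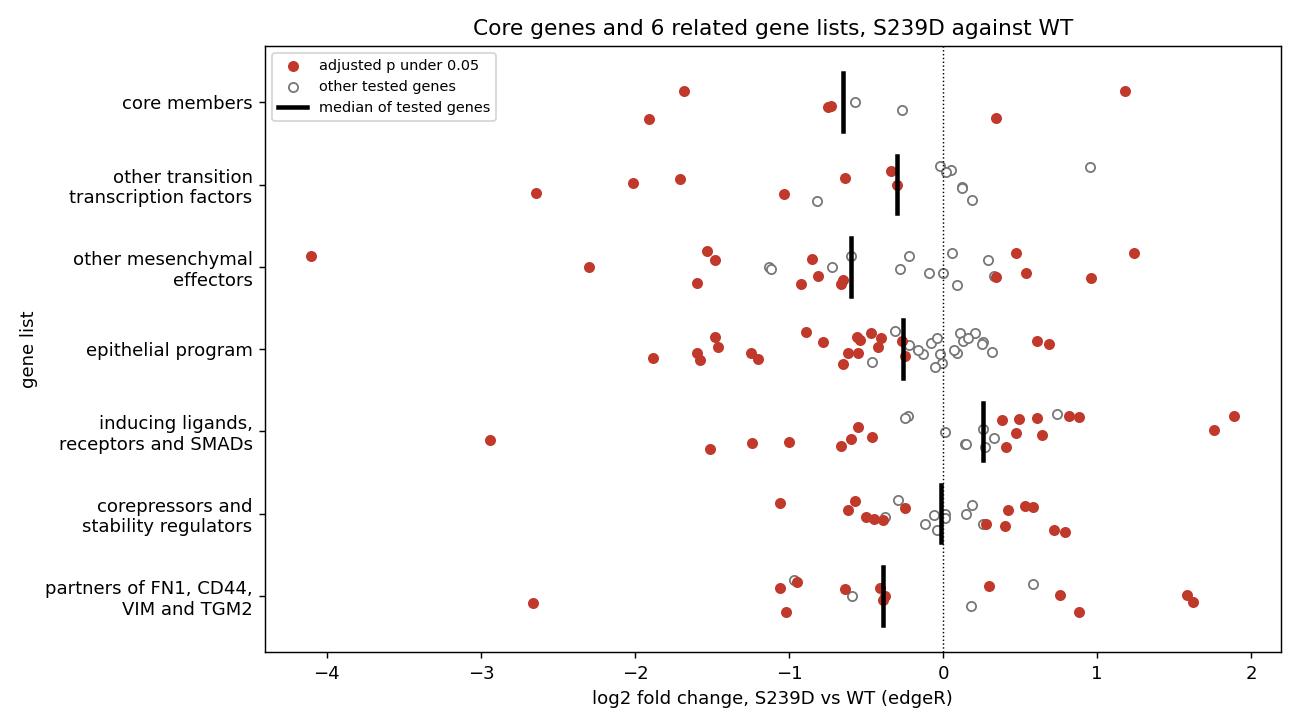
Log2 fold change of S239D against WT (horizontal axis) for the tested genes of the core set and 6 related lists (vertical axis), filled where the edgeR adjusted p was under 0.05, with the list median as a bar. Core, mesenchymal and epithelial medians lie at -0.65, -0.60 and -0.26, and that of inducing signals at 0.26.

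Signals upstream of the core factors split. Of 29 ligand, receptor and SMAD genes, 27 were tested. Among these 10 rose and 8 fell in S239D against WT (median 0.26), and 11 rose and 8 fell against S239A (median 0.03). The share called was 66.7% and 70.4%, beside 41.4% and 43.6% of all tested genes. EGFR, a growth factor receptor, rose by 1.89 on the log2 scale and averaged 1060 ± 44.1 CPM in S239D, against 287 ± 8.22 CPM in WT (edgeR adjusted p = 2.21e-08). BMP2, a ligand of the TGF-beta superfamily, rose by 1.76 (edgeR adjusted p = 2.44e-08) and IL6R, the interleukin 6 receptor gene, by 0.88 (edgeR adjusted p = 5.40e-06). Of 25 corepressors and stability regulators, 24 were tested. Among these 7 rose and 7 fell in S239D against WT (median -0.02), and 6 rose and 6 fell against S239A (median 0.08). The share called was 58.3% and 50.0%, beside the same 41.4% and 43.6% of all tested genes. SIN3A, the scaffold of a histone deacetylase complex, fell by 1.06 (edgeR adjusted p = 1.68e-06) and the deacetylase gene HDAC1 fell by 0.57 (edgeR adjusted p = 6.30e-05), while the deacetylase gene SIRT1 rose by 0.79 (edgeR adjusted p = 8.80e-05).

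Partners of the 4 effectors moved in both directions. Of 28 genes, 17 were tested. Among these 5 rose and 8 fell in S239D against WT (median -0.39), and 5 rose and 10 fell against S239A (median -0.50). The share called was 76.5% and 88.2%, beside 41.4% and 43.6% of all tested genes. HAS3, which makes the CD44 ligand hyaluronan, averaged 67.6 ± 2.13 CPM in S239D and 22.0 ± 0.457 CPM in WT, a rise of 1.62 on the log2 scale (edgeR adjusted p = 1.47e-07), while CD44 fell. SDC4, a syndecan that binds fibronectin, fell by 1.06 (edgeR adjusted p = 1.81e-05) and the intermediate filament gene NES fell by 1.02 (edgeR adjusted p = 2.02e-06). NES, a filament gene like VIM, thus differed from it in direction.

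Genes whose profile over the 9 libraries lay nearest to a member were found by the root mean square distance of centred log2(CPM + 1). They were sought among 12070 genes with a symbol and a mean of at least 5 CPM. The added 1 CPM damps differences of low genes. PPP1R1A, at 1.66 CPM in S239D, had an edgeR log2 fold change of -2.35 against WT, beside -1.91 for TGM2. SNAI2 lay nearest to EPHA3, an ephrin receptor gene, at 0.0965, then to SFMBT1 and MYSM1, against a median distance of 0.568. TWIST1 lay nearest to ACBD4 (0.091), IER5 and GADD45A (median 0.436), and FN1 to IL16 (0.119), with PRX also close (0.126, median 0.583). CD44 lay nearest to RBMS2 (0.0665), SLC7A2 and CLMN (median 0.479). TGM2 lay nearest to NQO1 (0.0845), an antioxidant enzyme gene that averaged 23.3 CPM in S239D, 88.1 in S239A and 81.1 in WT, then to RNF43 and PPP1R1A (median 0.912).

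Markers were checked against the labels, which call the cells prostate epithelial. All 12 luminal markers were at 1 TPM or more in some library, summing to 3050 to 3100 TPM in S239D, 4030 to 4570 in S239A and 3980 to 4070 in WT libraries. Of 10 fibroblast markers 4 stayed below 1 TPM in all libraries, among them FAP at 0. The fibroblast sum was 27.2 to 37.1 TPM in S239D, 48.6 to 61.6 in S239A and 47.2 to 59.1 in WT libraries. LUM and COL1A1 made up most of it. In CPM, LUM averaged 18.2 ± 5.16 in S239D and 33.7 ± 4.5 in WT. COL1A1 averaged 30.5 ± 4.23 CPM in S239D and 28.6 ± 0.987 in WT, so it was lower in TPM only. The fibroblast sum in TPM was lower in S239D, as were FN1, CD44 and TGM2, and its part in the result was not tested. Of 7 endothelial markers CDH5 was at 0, with sums of 2.02 to 5.62 TPM in S239D, 0.62 to 4.68 in S239A and 1.42 to 2.81 in WT. Of 8 immune markers CD3E and MS4A1 were at 0, with sums of 2.73 to 3.46, 3.48 to 12.8 and 4.86 to 7.65 TPM in the same groups. The 5 basal epithelial markers summed to 5.17 to 9.07, 4.02 to 5.17 and 3.53 to 4.8 TPM. PDCD4 counts do not separate the endogenous from the introduced transcript, and averaged 16.9 ± 0.183 CPM in S239D, 22.3 ± 3.05 in S239A and 23.1 ± 2.40 in WT cells (SD, n = 3), lower in S239D than in WT (-0.44, edgeR adjusted p = 0.0164). That PDCD4 difference did not pass once WT replicate 1 or 2 was dropped (-0.41 and -0.39, with edgeR adjusted p of 0.0657 and 0.0627), nor on log2(TPM + 1), where it was -0.29 (limma adjusted p = 0.41).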

How the data were processed

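RNA of 9 libraries was measured by poly-A-selected sequencing, per the labels' protocols. Deposited values were expected counts (whole-gene estimates without scaling across libraries) and TPM, which the authors scaled to each library's total. The submitters' processing notes list Trimmomatic 0.39 and RSEM. Aligner, build, annotation and strand setting: not given in the sources used here. GENCODE release 29 held 96.5% of the gene identifiers, and 99.85% of those lay at an overlapping GRCh38 position.

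After rounding, expected counts passed through filterByExpr (16213 genes kept) and TMM scaling. Groups were compared by edgeR 4.0.16 quasi-likelihood F tests (two-sided) in 1 fit of all 9 libraries in R 4.3.3, with Benjamini-Hochberg adjustment over all genes and calls at 0.05. The steps were tested on simulated data for S239D against WT with 200 changed genes, none of the lowest abundance. They recovered 47.8% of the 1.5-fold, 82.1% of the 2-fold and 98.5% of the 4-fold changes, and 10 of 162 calls were false. The data had far more called genes (6708), so these rates may not carry over. CPM are TMM-scaled and intervals are 95%. Floors cover counting error only.

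Libraries of a group differed by more than sampling noise (chi-square per degree of freedom 1.9 to 15.7). Pairs with replicate 2 of S239D or S239A gave 9.15 to 15.7, and all other pairs 1.9 to 2.48. Deviations of same-numbered libraries correlated across genes at 0.13 to 0.33 between S239D and S239A, every pair above 0.1, and at -0.02 to 0.07 with WT. The value of 0.33 was that of replicate 2. Reported values come from the fit without pairing, and the replicate block is an alternative.

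The members and lists were chosen with earlier results of these data known. Named genes were the members, CDH1, CDH2, EPCAM, ESRP1, ESRP2, OVOL1, OVOL2, GRHL2 and PDCD4, and from each of 6 lists and each comparison the 3 called genes of smallest adjusted p with at least 5 CPM. For each member of at least 5 CPM and a range of at least 1 in log2(CPM + 1), the 3 nearest profiles were added. Alternatives were RLE scaling, DESeq2 1.42.0, limma 3.58.1 on log2(TPM + 1) with and without a filter of 1 TPM in 3 libraries or on log2(TPM + 0.1), no filter, 1 CPM in 6 libraries, only the groups compared, a replicate block, and each library left out. A fit without S239D and S239A replicate 2 was added after seeing the data. Some genes that this rule names are not reported here.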

Additional observations from a re-analysis of the deposited data

Results flagged for a closer look

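In CPM, FN1, CD44 and TGM2 stood above WT in every S239A library and below WT in every S239D library. The variants' differences from the same WT libraries thus had opposite signs. In TPM, FN1 of S239D replicate 1 (15.35) lay above WT replicate 2 (14.88). TGM2 of S239A replicate 1 (12.11 TPM) lay below WT replicate 1 (13.79 TPM). The difference between the variants was tested directly as S239D against S239A. It was -1.34 for FN1 (edgeR adjusted p = 9.53e-07), from -0.75 in S239D and 0.59 in S239A against WT. It was -1.06 for CD44 (edgeR adjusted p = 2.89e-06), from -0.73 and 0.33. It was -2.08 for TGM2 (edgeR adjusted p = 1.84e-08), from -1.91 and 0.17. None of the 3 S239A differences from WT passed the edgeR test.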

How the results depend on the processing

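All directions of called member differences were kept under the 19 alternatives wherever the gene was tested, with 434 of 446 member values on the same side of the threshold, 6 losing and 6 gaining a call. The members called numbered 6 in S239D against WT and 7 to 8 in S239D against S239A when 1 library was left out. In S239A against WT, 0 members were called, but 1 with DESeq2, 1 with no filter on low counts, 1 with the replicate block and 2 without both replicate 2 libraries of the variants. The block called FN1 (0.58, edgeR adjusted p = 0.0453). The labels do not say whether replicate numbers pair the groups, and same-numbered S239A and WT libraries correlated in their deviations at 0.02 to 0.07. Of the 9 libraries 7 matched best, in another group, a library of their own number, a hint from the data and not the design. In S239D against S239A the block called 7610 genes and 7 members.

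Genes called in S239A against WT numbered 1, and 69 with DESeq2, 2 with limma on log2(TPM + 1) filtered or not, 3 with limma on log2(TPM + 0.1), 142 with no filter, 6 with the replicate block, 874 without both replicate 2 libraries and 1 to 8 without 1 library (8 without S239D replicate 2 and 2 without WT replicate 3). The related lists held 0 called genes there with edgeR and with DESeq2 (20 of 150 at an unadjusted edgeR p under 0.05), 2 with no filter and 15 without both replicate 2 libraries. In S239D against WT, 6708 genes (3195 higher, 3513 lower) became 4351 (2526 higher, 1825 lower) with limma on log2(TPM + 1), 4284 with log2(TPM + 0.1) and 3717 unfiltered, and 5322 to 7533 without 1 library. The lists' 88 called genes became 53 with limma unfiltered. In S239D against S239A, 7064 genes (3390 higher, 3674 lower) became 4697 (2784 higher, 1913 lower), 4642 and 4094, and the lists' 90 became 59 with limma on log2(TPM + 1) and 54 unfiltered. The cause was not tested. Depth limits SNAI1 and ZEB1, at 3 to 23 counts per library. ZEB1 has no value under the limma settings with a filter, under 1 CPM in 6 libraries or, for S239D against WT, in the fit of only these groups.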
